A study of Mus musculus with 68 samples.

Results

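Glycogen synthase kinase 3 and its binding partners in the beta-catenin pathway were followed through the developing mouse prefrontal cortex after lithium, fluoxetine or vehicle. The set comprised 10 genes found by symbol among the 18088 genes of the deposited table: the kinases Gsk3a and Gsk3b, their binding proteins Frat1 and Frat2, beta-catenin (Ctnnb1), the scaffolds Axin1, Axin2 and Apc, and the Dishevelled-binding proteins Cxxc4 and Nkd2. All 10 were present and passed the filter on low values, a mean of at least 5 normalized counts. The mice were C57BL/6J, aged postnatal day 25, and were either wild type (WT) or heterozygous for Adnp (HT). Adnp encodes a chromatin-binding protein that is mutated in a syndromic form of autism. Pups received vehicle, lithium or fluoxetine from day 3 to day 24 through the milk of their mothers, so the exposure of each pup depended on the dam. The labels do not state the dose, the Adnp allele or which pups shared a dam. Vehicle was given to 8 female and 7 male WT and to 8 female and 8 male HT mice. Lithium was given to 5 female and 3 male WT and to 4 female and 5 male HT mice, and fluoxetine to 5 mice of each sex and genotype. Each of the 68 libraries is treated as 1 mouse. P-values measure the spread between these samples, and they may be too small where pups shared a dam.

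GSK3 phosphorylates beta-catenin inside a destruction complex built on the scaffolds Axin and APC, and phosphorylated beta-catenin is degraded. A Wnt signal acting through Dishevelled, or an inhibitor such as lithium, spares beta-catenin, which then enters the nucleus and activates targets including Axin2. FRAT proteins bind GSK3 and compete with Axin for it. CXXC4 and NKD2 bind Dishevelled and restrain the signal.

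Depth, as reads recovered from the deposited values, lay between 22.4M and 37.5M per library. Adnp RNA did not separate the genotypes by a lower level in HT. It ranged from 1077 to 2290 normalized counts in the 33 WT libraries (median 1815) and from 1492 to 2845 in the 35 HT libraries (median 2190), and a count per gene cannot tell the alleles apart. Slc17a7, a marker of excitatory cortical neurons, was detected in every library, while summed olfactory bulb markers ranged from 2402 to 37455 and summed striatal markers from 5499 to 24576. Libraries were also divided into 3 sets by their pseudogene levels, a division that the labels do not name. The number of sets was fixed beforehand. Set 2 (28 libraries) held all 17 lithium libraries and 11 vehicle libraries, 5 WT and 6 HT. Set 1 (28) consisted of the 20 fluoxetine and 8 of the HT vehicle libraries, and set 3 (12) of 10 WT and 2 HT vehicle libraries. The 11 vehicle libraries of set 2 are those with replicate numbers 6 and above in the labels. Lithium was therefore compared with all 31 vehicle libraries and, separately, with the 11 vehicle libraries of the same set.

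Levels of the genes were compared per length, as normalized counts per kb of merged exons. Beta-catenin was the most abundant, with 3364 ± 262 normalized counts per kb (SD, n = 68), above 98.5% of all genes tested. Gsk3a followed with 2301 ± 140 per kb and Apc with 1776 ± 214 per kb. Gsk3b had 624 ± 50.4 per kb, and the ratio of Gsk3a to Gsk3b per kb had a median of 3.76. The order of these neighbours was the same in 68 of 68 libraries. The axins came next, with 180 ± 14.0 per kb for Axin1 and 150 ± 13.01 per kb for Axin2, and Axin1 exceeded Axin2 per kb in 63 of 68 libraries. Before division by length, Apc had the highest mean, 28626 normalized counts against 17464 for Ctnnb1. The median ratio was then 1.11 for Gsk3a to Gsk3b (0.77 to 1.31) and 1.17 for Axin2 to Axin1. These orders therefore depend on the merged exon length. Cxxc4 had 85.5 ± 10.5, Frat1 84.2 ± 18.1 and Frat2 82.8 ± 16.01 normalized counts per kb. These 3 levels did not differ beyond their spread. Cxxc4 exceeded Frat1 in 36 of 68 libraries, and Frat1 exceeded Frat2 in 37. Nkd2 was lowest in all 68 libraries, with 30.4 ± 8.74 per kb. The low genes also varied most: the coefficient of variation over the 68 libraries was 28.8% for Nkd2, 21.5% for Frat1 and 19.3% for Frat2, against 6.09% for Gsk3a and 7.79% for Ctnnb1.

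**Figure D1:**
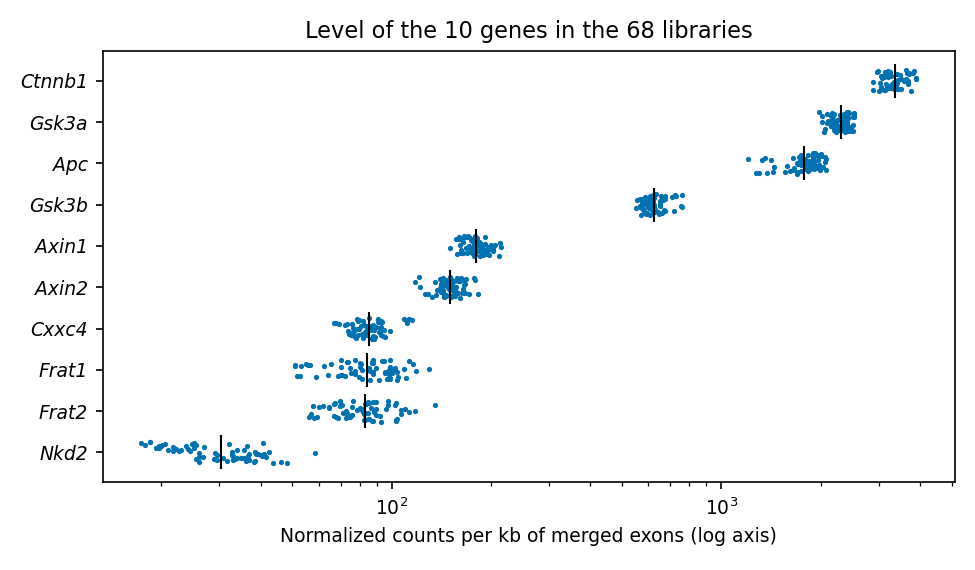
Level of each of the 10 genes, in normalized counts per kb of merged exons on a log axis. Each dot is 1 of the 68 libraries and the bar is the mean; beta-catenin lies highest at 3364 per kb, Cxxc4, Frat1 and Frat2 overlap near 84 per kb, and Nkd2 lies lowest at 30.4 per kb.

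Frat1 and Frat2 are neighbours on chromosome 19 that point towards each other. In GRCm38, Frat1 spans 41829970 to 41832583 on the plus strand and Frat2 spans 41845972 to 41848132 on the minus strand, with 13389 bases between them. The bases upstream of both starts are shown because both genes were called lower under lithium within set 2 over both genotypes, Frat2 narrowly. Whether these bases have a part in that was not tested. Each run is the 250 bases before the RefSeq start (GRCm38.p6), chr19:41829720-41829969 on the plus strand for Frat1 and chr19:41848133-41848382 on the minus strand for Frat2. Capitals mark the ungapped stretch shared by the 2 runs with the highest score, where each match adds as much as each mismatch takes off.
Frat1: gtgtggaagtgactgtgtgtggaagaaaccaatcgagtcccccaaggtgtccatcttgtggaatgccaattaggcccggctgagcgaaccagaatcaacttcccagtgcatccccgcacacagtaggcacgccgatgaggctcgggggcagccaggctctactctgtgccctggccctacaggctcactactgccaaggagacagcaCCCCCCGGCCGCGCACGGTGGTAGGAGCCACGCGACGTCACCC
Frat2: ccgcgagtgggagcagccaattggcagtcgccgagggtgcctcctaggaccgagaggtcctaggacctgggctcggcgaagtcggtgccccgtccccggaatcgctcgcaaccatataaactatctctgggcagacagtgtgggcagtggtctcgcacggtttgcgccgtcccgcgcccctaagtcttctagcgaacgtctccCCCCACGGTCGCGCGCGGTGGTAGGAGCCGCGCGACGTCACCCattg
The shared stretch is 43 bases long with 39 identical positions. It ends 1 base before the Frat1 start and 5 bases before the Frat2 start. Counted from the first capital, Frat1 and Frat2 differ by C5A, C9T, A15G and A30G, with the Frat1 base first. Its longest identical run, CGGTGGTAGGAGCC, occurs in 2 of 32851 promoters, those of Frat1 and Frat2. The last identical run holds CGTCA, the reverse strand of TGACG (the core of a cyclic AMP response element), which was found on either strand of 17.8% of all promoters. Neither run holds CTTTGA, the core letters bound by TCF and LEF factors, on either strand (13.8% of all promoters do) or GGGCGG (32.7%). Among the 8 genes with a promoter used, CTTTGA was found in Gsk3a and Gsk3b and in no other. TGACG was the only one of the 3 motifs found in the 2 runs, so no matches overlap there, and a match describes letters, not a bound site. Axin1 and Apc were not among the 8 genes.

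Lithium libraries held less Frat1 RNA than vehicle libraries in both genotypes. In WT the lithium libraries ranged from 133 to 171 normalized counts (median 145, n = 8), and the vehicle libraries from 184 to 303 (median 228, n = 15). Every WT lithium library lay below every WT vehicle library. In HT the lithium libraries ranged from 135 to 208 (median 180, n = 9) and the vehicle libraries from 197 to 310 (median 230, n = 16), with 8 of the 9 lithium libraries below all vehicle libraries. Restricted to set 2, vehicle libraries ranged from 184 to 228 in WT (n = 5) and from 212 to 262 in HT (n = 6), and the groups did not overlap in either genotype. All 17 lithium libraries lay below the median of the 51 other libraries, 234. Within set 2 and over both genotypes Frat1 fell by 0.45 on the log2 scale (SE 0.07), a level 27.0% lower (limma adjusted p = 0.000144). Against all vehicle libraries it fell by 0.55 (SE 0.06, adjusted p = 1.54e-09). In set 2 alone the difference was -0.43 in WT (SE 0.11, adjusted p = 0.0431) and -0.48 in HT (SE 0.10, adjusted p = 0.0187). The call over both genotypes held when any 1 of the 28 libraries was left out, while the call in WT alone was lost in 10 of 13 such fits (adjusted p up to 0.267) and with edgeR (adjusted p = 0.0515), and in HT alone in 6 of 15 (up to 0.13). The lowest Frat1 value rested on 134 reads.

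Frat2 also fell under lithium, with a smaller estimate. Lithium libraries ranged from 121 to 164 normalized counts (median 144, n = 17) and set 2 vehicle libraries from 144 to 230 (median 177, n = 11). The groups overlapped, with 9 lithium libraries below all 11 vehicle libraries and all 17 below their median. Within set 2 Frat2 fell by 0.27 (SE 0.07, limma adjusted p = 0.0449), 16.8% lower, and against all vehicle libraries by 0.37 (SE 0.07, adjusted p = 3.21e-05). The set 2 call was lost when 1 of 17 of the 28 libraries was left out (adjusted p up to 0.138). Taken by genotype within set 2, the Frat2 difference was -0.37 in HT (SE 0.10, adjusted p = 0.109) and -0.16 in WT (SE 0.11, adjusted p = 0.594). Frat1 and Frat2 share part of their sequence, 164 of the 2584 distinct 31-base words of Frat1 transcripts, so a small share of their reads could be assigned to either gene. The other protein-coding genes within 150 kb did not pass the test within set 2. Arhgap19, 27923 bases from Frat1, differed by -0.09 (SE 0.06, adjusted p = 0.516) and Rrp12, 30268 bases away, by -0.01 (SE 0.05, adjusted p = 0.964). Against all vehicle libraries, where 35.9% of all genes were called, Slit1, Rrp12, Pgam1, Zdhhc16 and Ubtd1 were called higher and Exosc1 lower. Arhgap19 and Mms19 did not pass there.

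Beta-catenin RNA was lower under lithium than in every vehicle library of set 2. The 17 lithium libraries ranged from 15791 to 17454 normalized counts (median 16686). The 11 vehicle libraries of set 2 ranged from 17689 to 19899 (median 19122), so the groups did not overlap. Ctnnb1 (chromosome 9, 120929216 to 120960507, plus strand, GRCm38) fell by 0.20 within set 2 (SE 0.03, limma adjusted p = 0.000105), a level 13.1% lower. The difference was -0.24 in WT (SE 0.05, adjusted p = 0.00612) and -0.16 in HT (SE 0.04, adjusted p = 0.101). The call over both genotypes held without any 1 of the 28 libraries, and the WT call was lost only without WT vehicle male replicate 6 (adjusted p = 0.0826). Vehicle libraries of the other sets were lower on average. In WT, those of set 3 had 17029 ± 1169 (SD, n = 10) and those of set 2 had 19374 ± 477 (SD, n = 5). Those of WT set 3 (15392 to 19226) and HT set 1 (16377 to 17710) overlapped lithium. The 2 HT set 3 vehicle libraries (15027 and 15735) lay below all 17 lithium libraries. In HT the sign of the difference thus depended on the vehicle set. The HT lithium mean, 16816, was below that of HT set 1 vehicle (17312) and above that of HT set 3 vehicle (15381). Compared with all vehicle libraries, beta-catenin fell by 6.02% under lithium (log2 difference -0.09, SE 0.03, adjusted p = 0.0212). This call was lost with the replicate number as a block (-0.04, adjusted p = 0.324). Numbers 6 and above occur only in vehicle groups, so the block took up the level of the set 2 vehicle libraries. That fit in effect set lithium against the vehicle libraries of sets 1 and 3.

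**Figure D2:**
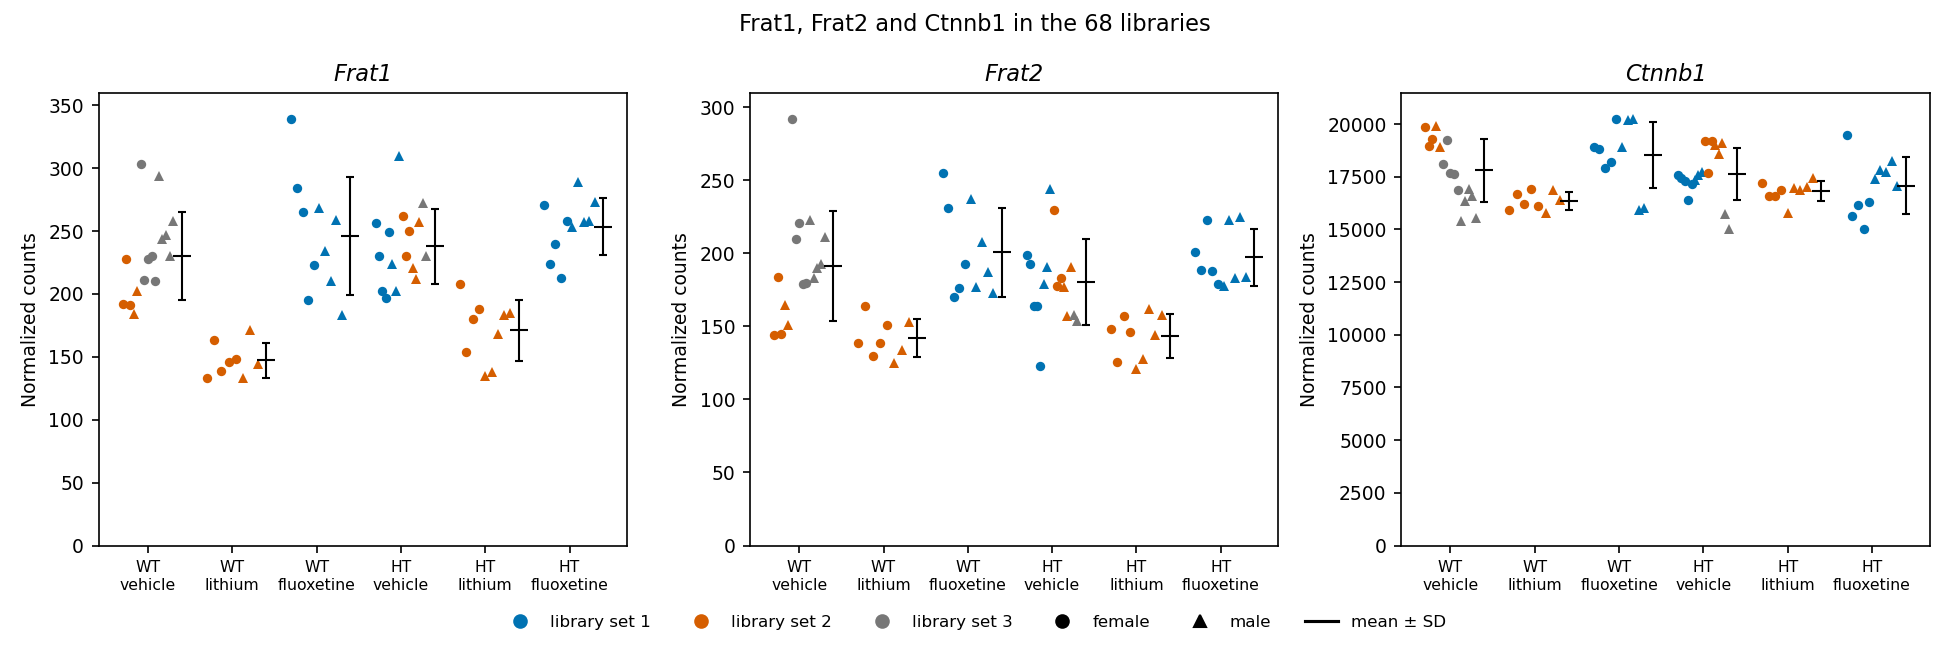
Normalized counts of Frat1, Frat2 and Ctnnb1 in each library, by genotype and treatment, with colours for library sets 1 to 3, circles for females, triangles for males, and the mean ± SD of each group in black. Frat1 in lithium libraries (133 to 208) lies below every set 2 vehicle library of the same genotype, and Ctnnb1 in lithium libraries (15791 to 17454) lies below all 11 set 2 vehicle libraries (17689 to 19899) but not below the set 3 vehicle libraries.

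The kinases themselves did not pass the test for lithium within set 2. Gsk3a ranged from 5973 to 7343 normalized counts in lithium libraries and from 6261 to 7264 in set 2 vehicle libraries, a log2 difference of 0.00 (95% interval -0.06 to 0.07, limma adjusted p = 0.978). Gsk3b ranged from 5450 to 7078 under lithium and from 5430 to 6235 under set 2 vehicle, a difference of 0.04 (interval -0.02 to 0.11, adjusted p = 0.618). Both kinases overlapped their vehicle groups. Against all WT vehicle libraries, Gsk3b in WT fell by 0.13 (SE 0.05, adjusted p = 0.0231). Within set 2 the WT difference was -0.03 (SE 0.05, adjusted p = 0.879). In HT, Gsk3b ranged from 5743 to 7078 under lithium and from 5430 to 6155 under set 2 vehicle. The groups overlapped, with 5 of 9 lithium libraries above all 6 vehicle libraries, and the difference was 0.11 (SE 0.04, adjusted p = 0.271). The difference of the effects, HT minus WT, was 0.14 within set 2 (SE 0.06, adjusted p = 0.49). The WT vehicle libraries of set 3 had 6697 ± 486 normalized counts of Gsk3b (SD, n = 10) and those of set 2 had 6030 ± 168 (SD, n = 5).

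The scaffolds also did not pass within set 2. Axin1 ranged from 621 to 776 normalized counts under lithium and from 630 to 715 under set 2 vehicle (difference 0.01, interval -0.06 to 0.09, limma adjusted p = 0.924). Axin2, a feedback target of the pathway, ranged from 650 to 1006 under lithium and from 666 to 928 under vehicle (0.06, interval -0.03 to 0.15, adjusted p = 0.618). Apc, the large scaffold of the destruction complex (chromosome 18, 34220924 to 34322552, plus strand), ranged from 19476 to 33499 under lithium and from 25510 to 31470 under vehicle (-0.06, interval -0.17 to 0.06, adjusted p = 0.752). Its 3 lowest lithium libraries in WT lay below every WT vehicle library, and the WT difference against all vehicle libraries, -0.20 (SE 0.07, adjusted p = 0.0167), was lost when 1 of 2 WT libraries was left out (adjusted p up to 0.122).

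Cxxc4, which encodes a CXXC zinc finger protein, was lower in WT lithium libraries. They ranged from 897 to 1101 normalized counts (median 946, n = 8), the set 2 WT vehicle libraries from 1054 to 1144 (n = 5) and the set 3 WT vehicle libraries from 1214 to 1547 (n = 10). A total of 7 of the 8 lithium libraries lay below all 15 vehicle libraries. The difference in WT was -0.41 against all vehicle libraries (SE 0.06, limma adjusted p = 5.43e-07) and -0.19 within set 2 (SE 0.05, adjusted p = 0.0624). In HT the lithium libraries ranged from 994 to 1243 and set 2 vehicle from 989 to 1122, a difference of 0.03 (SE 0.05, adjusted p = 0.86). Nkd2 did not pass in any lithium comparison. Within set 2 its difference over both genotypes was 0.07 (interval -0.15 to 0.29, adjusted p = 0.857).

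In all, 3 of the 10 genes were called within set 2 over both genotypes, all lower under lithium. The share of all 17922 genes tested that were called lower there was 0.547%, and 1.8% were called in either direction. In WT alone 2 of 10 were called within set 2 (0.664% of all genes) and in HT alone 1 (0.162%). The 10 genes were chosen with earlier results of these data known, so these counts beside the shares do not test the set. Against all vehicle libraries 4 of 10 were called over both genotypes, a share close to the 35.9% of all genes called. There the counts were 6 of 10 in WT (36.1%) and 1 of 10 in HT (1.52%), where Frat2 had an adjusted p of 0.0505. The median log2 difference of the 10 genes within set 2 was -0.03, and that of all genes was 0.00. In bulk tissue, fewer cells of a type and less RNA per cell cannot be told apart.

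The summed markers of neighbouring regions varied between the groups compared. Within set 2, summed olfactory bulb markers ranged from 2942 to 8547 in HT lithium and 2827 to 16228 in HT vehicle libraries, and from 2402 to 9962 in WT lithium and 2713 to 12686 in WT vehicle libraries. Summed striatal markers ranged from 8131 to 22321 in HT lithium and 7340 to 23917 in HT vehicle libraries, and from 7417 to 15146 in WT lithium and 7423 to 24576 in WT vehicle libraries. Tbx21 of the first list and Isl1 of the second were at 0 in at least 1 library. None of the 9 olfactory bulb and none of the 10 striatal markers passed for lithium within set 2. Their median differences had opposite signs in the genotypes, -0.77 in HT and 0.63 in WT for olfactory bulb markers and 0.58 in HT and -0.55 in WT for striatal markers. Among markers of other cell types, endothelial Cdh5 was lower and interneuron Pvalb higher over both genotypes, and interneuron Npy was higher in WT. The median differences over both genotypes were -0.14 for endothelial, -0.11 for mural, -0.15 for meningeal and -0.41 for choroid plexus markers. None of the 5 choroid plexus markers passed, and Ttr among them was at 0 in at least 1 library. The part of these cell types in the results was not tested. With both sums as covariates in the set 2 fit, which was tried only once the data were known, the differences were -0.43 for Frat1 (limma adjusted p = 7.18e-06), -0.25 for Frat2 (0.0164) and -0.20 for Ctnnb1 (8.07e-05). Their size changed little.

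**Figure D3:**
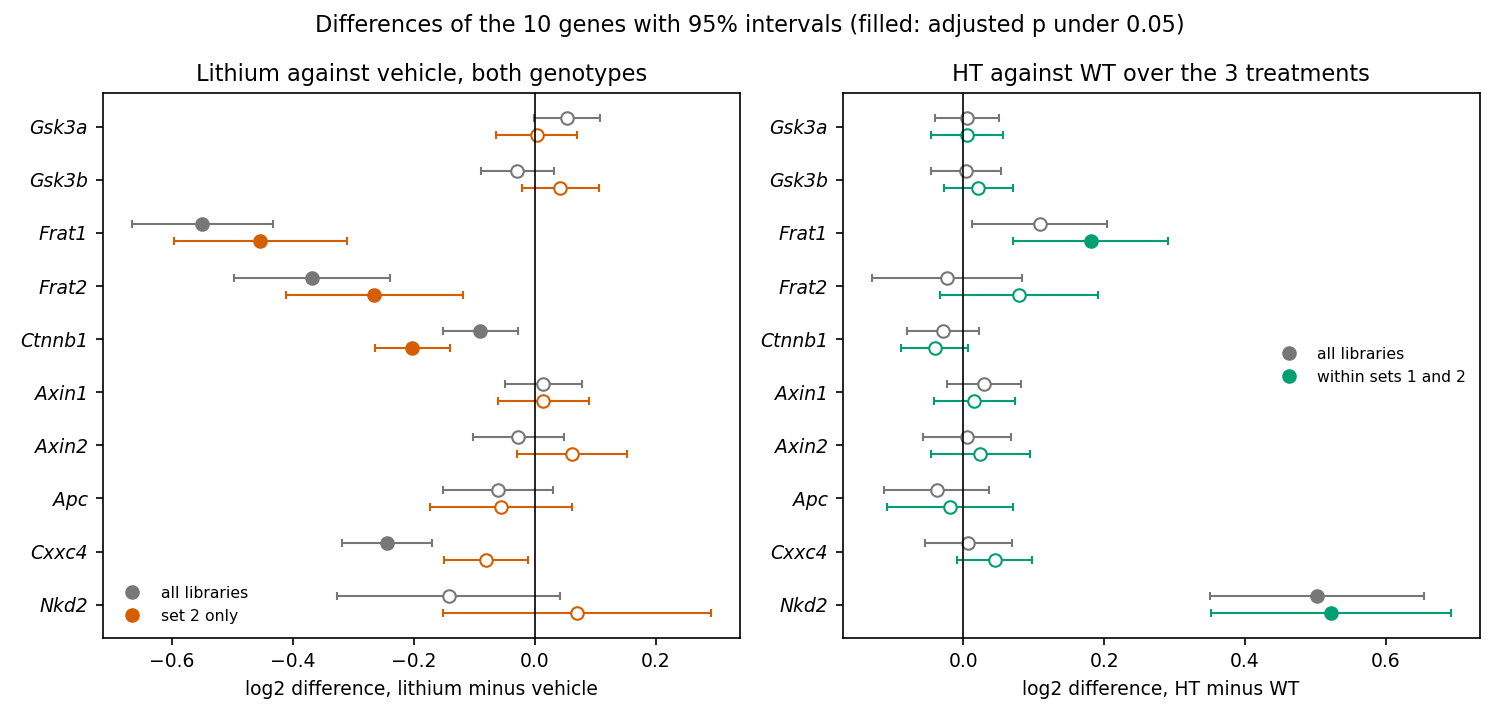
Log2 differences of the 10 genes with 95% intervals, filled where the adjusted p was under 0.05. On the left, lithium minus vehicle over both genotypes, with Frat1, Frat2 and Ctnnb1 lower both against all vehicle libraries (grey) and within set 2 (orange), and Cxxc4 past the threshold only in the former; on the right, HT minus WT over the 3 treatments, with Nkd2 near 0.5 in both fits.

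Whether lithium acted differently in the genotypes was tested as the difference of the effects, HT minus WT. Cxxc4 was the only one of the 10 genes called (0.34, SE 0.08, limma adjusted p = 0.0175), in a comparison that called 2.8% of all genes. The call was lost without HT lithium female replicate 3 or WT lithium male replicate 2 (adjusted p up to 0.0892). Within set 2 its value was 0.23 (SE 0.07, adjusted p = 0.37), and none of the 17922 genes was called, with 1606 at an unadjusted p under 0.05 and 0 by edgeR. For Frat1 the difference of effects within set 2 was -0.05 (interval -0.34 to 0.23), for Frat2 -0.21 (-0.50 to 0.08) and for Ctnnb1 0.08 (-0.04 to 0.21). The lithium effect in males minus that in females passed for none of the 10 genes, nor for any gene tested (limma; 1554 at an unadjusted p under 0.05, 0 by edgeR and 2 by DESeq2). In the fit of all libraries the largest sex difference among the 10 was in Cxxc4, -0.19 (SE 0.08, adjusted p = 0.528), and within set 2 it was in Nkd2, 0.29 (SE 0.23, adjusted p = 1).

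Nkd2 differed by genotype. Under vehicle it ranged from 84.4 to 196 normalized counts in WT (median 99.1, n = 15) and from 126 to 282 in HT (median 177, n = 16). Under lithium it ranged from 92.7 to 130 in WT (n = 8) and from 123 to 172 in HT (n = 9), and under fluoxetine from 101 to 205 in WT and from 126 to 232 in HT (n = 10 each). The groups overlapped under each treatment, yet all 16, 9 and 10 HT libraries lay above the WT median of their treatment. Among set 2 vehicle libraries the groups did not overlap: the 6 HT libraries (126 to 194) lay above the 5 WT libraries (85.8 to 123). Averaged over the 3 treatments, a comparison made only once the data were known, Nkd2 rose by 0.50 in HT (SE 0.08, limma adjusted p = 1.56e-06), a level 41.7% higher, and by 0.52 within sets (SE 0.09, adjusted p = 1.49e-05). The call held without any 1 of the 68 libraries. By treatment the difference was 0.61 under vehicle (SE 0.11, adjusted p = 7.09e-05), 0.46 under lithium (SE 0.15, adjusted p = 0.0872) and 0.43 under fluoxetine (SE 0.14, adjusted p = 0.087). Within 1 set these became 0.67 under vehicle (SE 0.18, adjusted p = 0.0603), 0.46 under lithium (adjusted p = 0.0462) and 0.43 under fluoxetine (adjusted p = 0.0479), where 1 of 10 genes and 2.85% of all genes were called. The lithium call within set 2 was lost in 13 of 17 fits that left out 1 library (adjusted p up to 0.215), and the fluoxetine call in 14 of 20 (up to 0.107). With edgeR both missed the threshold (adjusted p = 0.0523 and 0.0766), and with TMM rescaling the lithium call did (adjusted p = 0.0517).

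Nkd2 lies on chromosome 13 at 73818534 to 73847631 (minus strand, GRCm38). Its nearest protein-coding neighbour, Slc12a7, ends 1780 bases away and differed by -0.01 between the genotypes (SE 0.05, limma adjusted p = 0.932), and Trip13 and Brd9, on the other side, did not pass. Beyond Slc12a7, Slc6a19 lies 113669 bases from Nkd2, with a mean of 14.4 normalized counts. It was higher in HT by 1.95 in the same fit (SE 0.12, adjusted p = 4.7e-20). Of the olfactory bulb markers, 0 of 9 passed between the genotypes over the 3 treatments within sets, with a median difference of 0.66. Their sum ranged from 2827 to 37455 in HT and from 2713 to 36018 in WT vehicle libraries. With the summed olfactory bulb and striatal markers as covariates, Nkd2 was higher in HT by 0.51 over all libraries (adjusted p = 3.41e-15) and by 0.46 within sets (adjusted p = 5.55e-11). With these covariates the lithium and fluoxetine differences were 0.46 (adjusted p = 0.000183) and 0.42 (adjusted p = 7.47e-05) over all libraries.

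**Figure D4:**
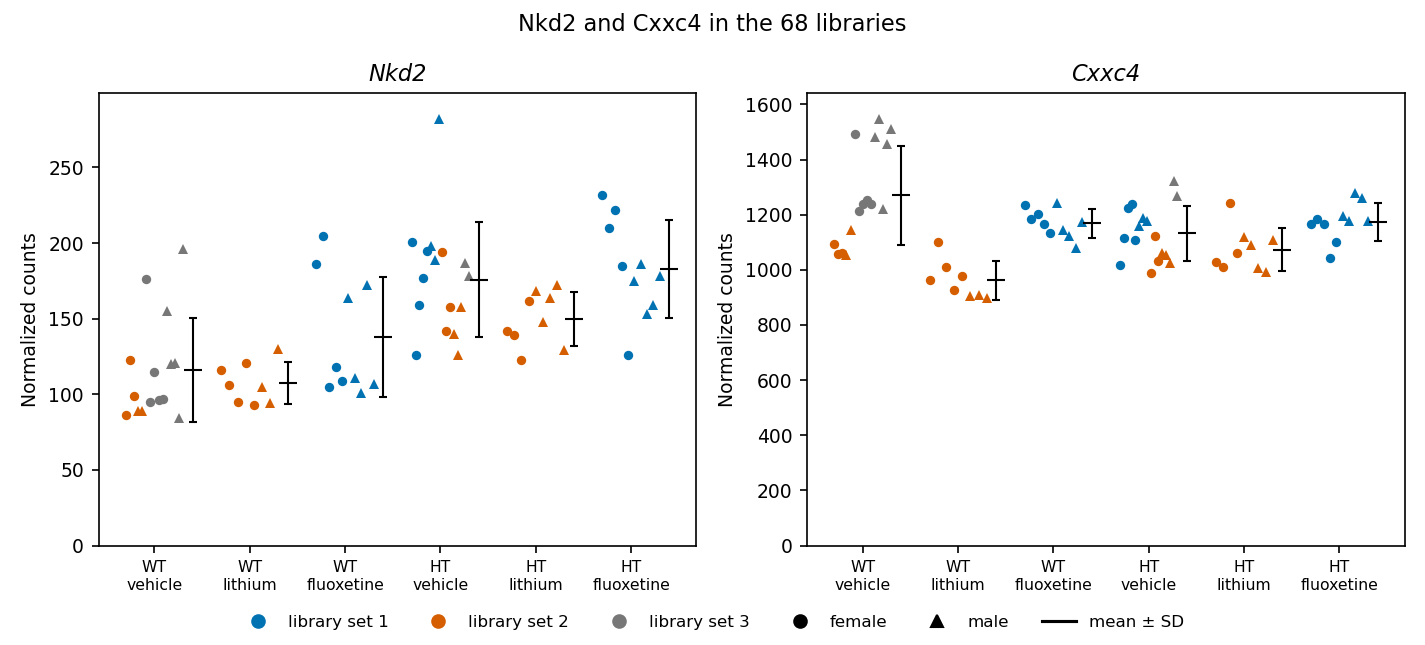
Normalized counts of Nkd2 and Cxxc4 in each library, with colours, symbols and bars as in the plot of Frat1, Frat2 and Ctnnb1. All HT libraries of Nkd2 lie above the WT median of their treatment, and Cxxc4 in WT vehicle is higher in set 3 (1214 to 1547) than in set 2 (1054 to 1144).

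Other genotype differences were smaller. Under vehicle, with all libraries, 3 of 10 genes were called (15% of all genes): Nkd2, Gsk3b (-0.11, SE 0.04, limma adjusted p = 0.0386) and Cxxc4 (-0.16, SE 0.04, adjusted p = 0.0106). Within set 2 Gsk3b differed by -0.05 (SE 0.05) and Cxxc4 by -0.05 (SE 0.06), both with an adjusted p of 0.999, and none of the 10 was called (0.536% of all genes). The Gsk3b call was lost in 15 of 31 fits that left out 1 library (adjusted p up to 0.0892). Under lithium the sign of Cxxc4 was the other way: all 9 HT libraries (994 to 1243) lay above the WT median of 946, with a difference of 0.18 (SE 0.06, adjusted p = 0.112, and 0.0122 within set 2, where 2 of 10 genes and 4.49% of all genes were called). The set 2 call was lost without HT lithium female replicate 3 (0.14, adjusted p = 0.0629). None of the 10 genes was called under lithium (2.51% of all genes) or fluoxetine (1.98%) in the fit of all libraries. Over the 3 treatments within sets, 2 of 10 were called (4.65% of all genes). Frat1 was the second, with 0.18 (SE 0.06, adjusted p = 0.0459), a call lost in 30 of 48 fits that left out 1 library (adjusted p up to 0.123) and with edgeR (adjusted p = 0.0623). In the fit of all libraries Frat1 differed by 0.11 (SE 0.05, adjusted p = 0.197), and Nkd2 was the 1 gene of 10 called (7.43% of all genes). Beta-catenin did not pass between the genotypes, with -0.03 over the 3 treatments (interval -0.08 to 0.02, adjusted p = 0.606).

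Fluoxetine, a serotonin reuptake inhibitor, gave no call for Frat1 or Frat2. Frat1 ranged from 183 to 339 normalized counts in WT fluoxetine libraries (median 246) and from 213 to 289 in HT (median 258). Frat1 differed from vehicle by 0.09 in WT (SE 0.08, limma adjusted p = 0.561) and 0.10 in HT (SE 0.08, adjusted p = 0.648). Gsk3b was the 1 gene of 10 called in WT (-0.14, SE 0.04, adjusted p = 0.0393; 5.43% of all genes). All 10 WT fluoxetine libraries, 5656 to 6410 normalized counts, lay below the WT vehicle median of 6442. No set held both sides of this comparison, so set and drug cannot be told apart in WT, and the call was lost in 13 of 25 fits that left out 1 library (adjusted p up to 0.0779) and in a fit of the WT vehicle and fluoxetine libraries alone (0.0927). In HT none of the 10 was called (1.22% of all genes, and 0.167% within set 1). The largest HT difference was in Apc, from 20581 to 29601 under fluoxetine and from 23208 to 32696 under vehicle (-0.20, SE 0.06, adjusted p = 0.0894). Lithium and fluoxetine were compared with shared vehicle libraries and not with each other.

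**Figure D5:**
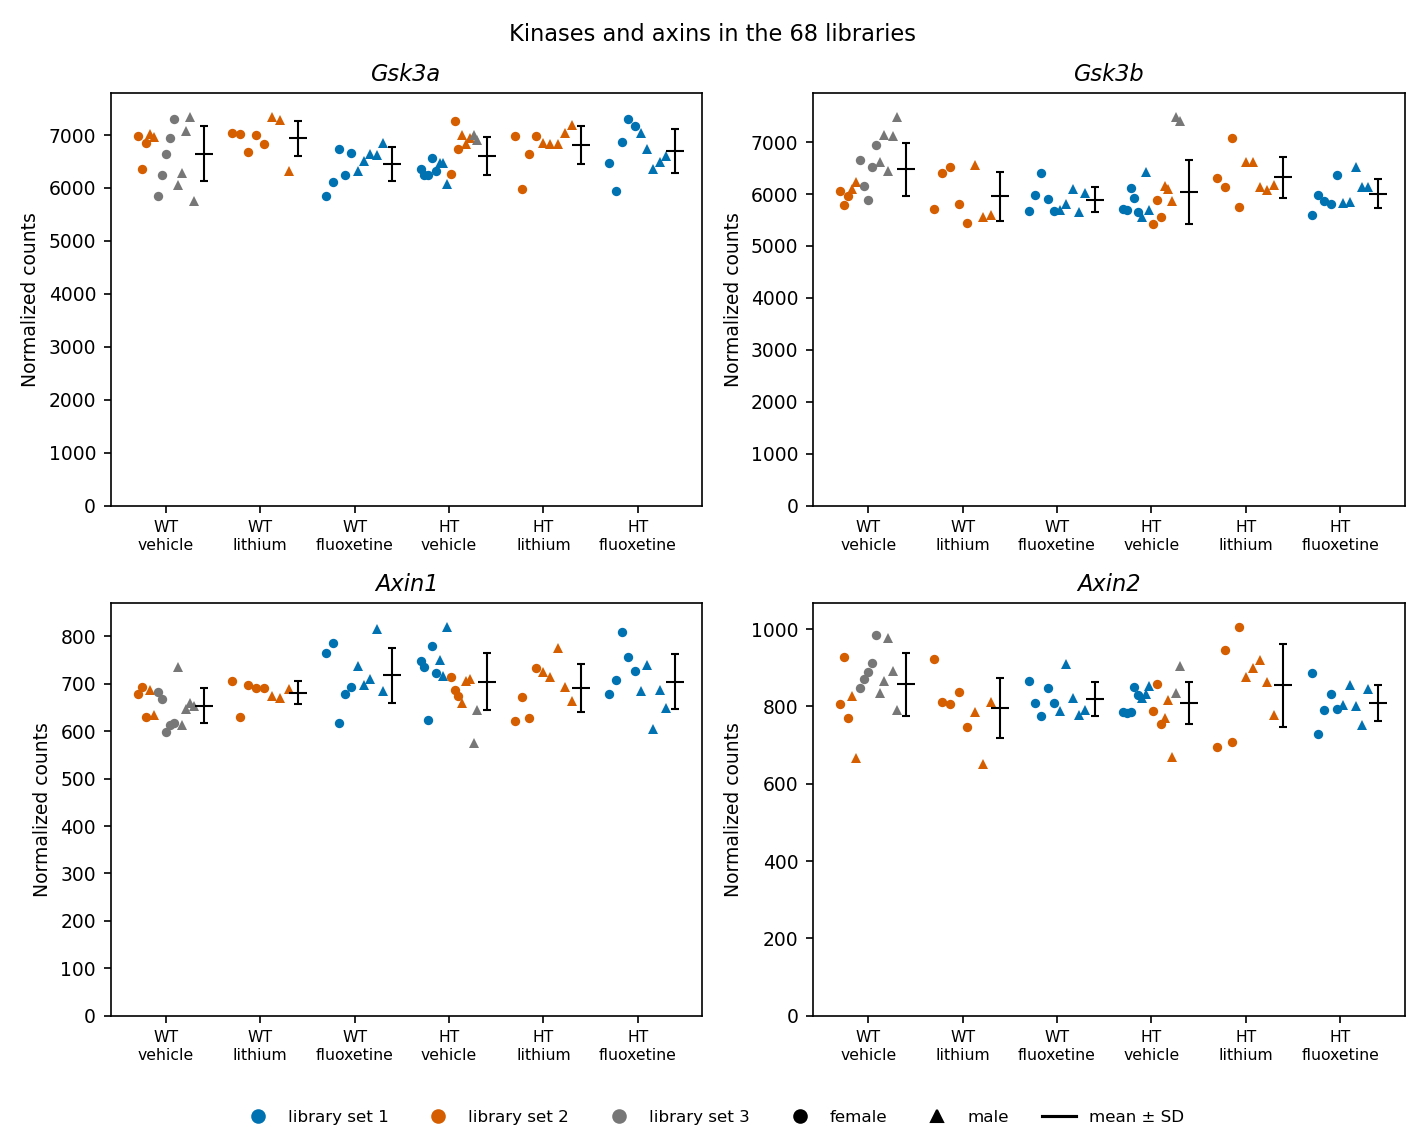
Normalized counts of Gsk3a, Gsk3b, Axin1 and Axin2 in each library, with colours, symbols and bars as in the plot of Frat1, Frat2 and Ctnnb1. Lithium libraries overlap the set 2 vehicle libraries in all 4 genes, and Gsk3b is higher in the 12 set 3 vehicle libraries (5883 to 7486) than in those of set 2 (5430 to 6235), with some overlap.

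A further 124 pathway genes from 10 lists were tested with the same fits. For lithium over both genotypes within set 2, 1 was higher and 0 were lower, with a median of -0.01 against 0.00 for all genes. The 1 gene was the ligand Wnt10a, with 167 to 243 normalized counts in WT lithium and 126 to 149 in WT vehicle libraries of set 2, and 104 to 180 and 95.7 to 146 in the matching HT groups. The WT groups did not overlap and the HT groups did. Its difference was 0.35 over both genotypes (SE 0.09, limma adjusted p = 0.0289) and 0.57 in WT (adjusted p = 0.0308). Among 15 transcriptional targets none was called over both genotypes there, and Ccnd1, the cell cycle regulator cyclin D1, was called in WT (0.25, SE 0.06, adjusted p = 0.0431). None of 18 Wnt receptors, 18 other destruction complex and Dishevelled genes, 17 nuclear partners of beta-catenin, 12 kinases and scaffolds acting on GSK3 or 10 GSK3 substrates was called. Against all vehicle libraries 25 of the 124 were higher and 30 lower, where 35.9% of all genes were called. Between the genotypes over the 3 treatments within sets, 1 of the 124 was higher and 3 were lower, no larger a share than the 4.65% of all genes called. Rspo1, a secreted Wnt agonist, was higher in HT (0.35, SE 0.09, adjusted p = 0.00622), and Wnt10a (-0.34, SE 0.07, adjusted p = 0.000645) and the receptors Fzd2 (-0.28, SE 0.06, adjusted p = 0.000405) and Fzd4 (-0.22, SE 0.05, adjusted p = 0.00339) were lower. In the same comparison 3 of 10 astrocyte markers (Aqp4, Slc1a3 and Fgfr3) and 2 of 7 oligodendrocyte precursor markers were lower in HT, beside the same 4.65%. So were Npy of the interneuron, Ly6c1 of the endothelial, Myh11 of the mural, Igf2 of the meningeal, Kl of the choroid plexus and Cux2 of the excitatory neuron markers, and no marker of these lists was higher. Their part in these differences was not tested.

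With group means taken off, the genes most like Gsk3b over the 68 libraries were Appbp2 (Pearson's r 0.91) and Dnajb14 (0.91). Those most like Ctnnb1 were Colgalt1 (0.81) and Rplp0 (0.78), and those most like Axin2 were Ciz1 (0.68) and Arc (0.66). These values describe shared variation between libraries, which also share set and depth. With set means off too, they were 0.87 and 0.86 for Gsk3b, 0.66 and 0.67 for Ctnnb1, and 0.66 and 0.59 for Axin2.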

How the data were processed

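RNA from the prefrontal cortex of 68 mice was sequenced from stranded mRNA libraries, per the labels' protocols. The submitters' processing notes name Salmon 0.11.2, R 3.6.0, DESeq2 1.19.11 and GRCm38 without giving their roles, and whether counting used strand is not given in the sources used here. The deposited signal values are reads divided by 1 size factor per library, as the low values show: 100% of values came out as whole reads within 0.01. Depth was 22.4M to 37.5M recovered reads, and the fewest reads for any of the 10 genes in a library were 77, for Nkd2.

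Since the deposited values were already normalized, the principal test was on a log scale and count models on recovered reads were alternatives. Log2(value + 1) was fitted with limma 3.58.1 (trend and robust, R 4.3.3) as 12 group means of genotype, treatment and sex. The filter, a mean of 5 or more, kept 17922 genes and left out 166, with Benjamini-Hochberg adjustment and a threshold of 0.05. Fold changes are on the log2(value + 1) scale. Sets of libraries came from average linkage of 361 pseudogenes, cut to give 3 sets, and within-set values from a fit of group by set. Alternatives were edgeR 4.0.16 and DESeq2 1.42.0 on recovered reads, TMM scaling, a pseudocount of 5, no filter, only the groups compared, a replicate block and each library left out. Within sets, TMM, edgeR, left-out libraries and marker sums as covariates were alternatives chosen after seeing the data. The fit was tested on simulated data.

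The members and lists were chosen with earlier results of these data known. All 10 members were described in every comparison. From each pathway list up to 3 called genes with the smallest p could be named, and for Gsk3b, Ctnnb1 and Axin2 the 2 genes with the highest Pearson correlation over the libraries, group means taken off. Genome positions are GENCODE vM21 (GRCm38), and promoter sequences are from RefSeq (GRCm38.p6).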

Additional observations from a re-analysis of the deposited data

Results flagged for a closer look

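A highest or lowest library stood apart from the rest of its group, by Dixon's criterion at the 95% level, in 7 of 110 groups of a gene, where chance gives about 1 in 20 (5.5). WT vehicle female replicate 1 was the highest of 8 for Frat1 (303 normalized counts, the next at 230), Cxxc4 (1493, next 1252) and Nkd2 (176, next 123). HT vehicle male replicate 5 was the highest of 8 for Frat2 (244, next 191) and Nkd2 (282, next 198). Summed olfactory bulb markers in these libraries were 36018 and 37455, against a median of 4196 over all 68, and their part in these values was not tested. HT fluoxetine female replicate 1 was the highest of 5 for Ctnnb1 (19492, next 16284), and WT lithium female replicate 2 the lowest of 5 for Axin1 (630, next 691).

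The lithium effect on Cxxc4 differed between the genotypes, HT minus WT, by 0.34 on the log2 scale (limma adjusted p = 0.0175), with 7 of 8 WT lithium libraries below all WT vehicle libraries. Within set 2 the difference of effects was 0.23 (adjusted p = 0.37).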

How the results depend on the processing

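No called value of the 10 genes changed sign under any alternative, while 24 of the 93 values that did not pass changed sign in at least 1. The count of 24 covers alternatives to the fit of all libraries, the within-set fit among them, but not left-out libraries. Frat1 under lithium over both genotypes and Nkd2 between the genotypes over the 3 treatments passed under every alternative run, within sets too. The cause of the changes listed here was not tested. Counts in this section show how calls moved between fits. Where no share of all genes stands beside them, they say nothing particular about the 10 genes. With edgeR the members called were 2 for lithium in HT and, within sets, 1 for lithium in WT, 1 between genotypes under lithium, 0 under fluoxetine and 1 over the 3 treatments. With TMM within set 2 the members called between genotypes under lithium were 1, and TMM moved the share of called genes with a higher lithium effect in HT from 41% to 31%. With DESeq2 the members and genes called were 2 and 449 for lithium in HT, 2 and 1021 for HT minus WT, 1 and 370 for fluoxetine in HT, 2 members for fluoxetine in WT, and 2 genes for male minus female. With only the groups compared they were 2 and 495 for lithium in HT, 0 and 1 for HT minus WT, 1 and 858 for the genotypes under vehicle, 0 and 80 for fluoxetine in WT, 4254 genes for lithium in WT, and 2 members for the genotypes under lithium. Within 1 set they were 2 and 119 for lithium in WT, 0 and 0 for HT minus WT, 0 and 96 for the genotypes under vehicle, 2 and 805 under lithium, 2 and 833 over the 3 treatments, 1 member under fluoxetine, and 29, 322 and 30 genes for lithium in HT, lithium in both genotypes and fluoxetine in HT. With the marker sums as covariates, all libraries gave 3 and 1988 for HT minus WT, 2 and 830 for the genotypes under lithium, 1 and 817 under fluoxetine, 2 and 2268 for fluoxetine in WT, and 75, 3478 and 463 genes for lithium in HT, lithium in both genotypes and fluoxetine in HT. Within sets the covariates gave 2 and 1180 for the genotypes under fluoxetine, 1 member under vehicle, and 241, 485 and 207 genes for lithium in WT, lithium in both genotypes and fluoxetine in HT. Replicate numbers appear to pair no samples: over 313 pairs with the same number the mean correlation of deviations was 0.0045, from -0.467 to 0.506, with 72 over 0.1. As a replicate block they gave 3 and 3746 for lithium in HT, 3 and 1150 for HT minus WT, 4 and 4003 for fluoxetine in WT, 1 member for the genotypes under lithium, and 398 genes for fluoxetine in HT, and the beta-catenin call over both genotypes was lost (-0.04, adjusted p = 0.324). Numbers 6 and above occur only in vehicle groups, so this block took up the level of the set 2 vehicle libraries.

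Leaving out 1 library at a time gave, for members and genes called, 3 to 6 and 4961 to 7340 for lithium in WT (within set 2, 0 to 3 and 16 to 302), 1 to 2 and 61 to 379 in HT (0 to 1 and 2 to 59) and 4 to 5 and 5591 to 7163 in both (2 to 3 and 159 to 514). It gave 0 to 3 and 0 to 1492 for HT minus WT (0 to 2 genes within set 2) and 0 to 1 genes for male minus female. Between the genotypes it gave 2 to 4 and 1730 to 4155 under vehicle (within set, 0 to 1 and 52 to 94), 170 to 594 genes under lithium (0 to 2 and 249 to 1103), 0 to 1 and 276 to 448 under fluoxetine (0 to 2 and 398 to 684), and 1 to 2 members over the 3 treatments within sets. For fluoxetine it gave 0 to 3 and 338 to 1969 in WT and 0 to 1 and 111 to 432 in HT (0 to 116 genes within set 1). WT lithium male replicate 2 and WT vehicle male replicate 6 gave many of these extremes.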

Other observations

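Slc6a19, a neutral amino acid transporter gene 113669 bases from Nkd2, was higher in HT over the 3 treatments within sets by 2.09 on the log2 scale (SE 0.13, limma adjusted p = 4.65e-19). Its mean over all 68 libraries was 14.4 normalized counts. It was looked at as a neighbour of Nkd2 and chosen for mention after its value was seen. Slc12a7, which lies between Slc6a19 and Nkd2, differed by -0.04 in the same fit (SE 0.06, adjusted p = 0.864).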
